A study of Mus musculus with 12 samples.

Results

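*Nav2*, *Mrc2*, *Ntrk2*, *Cd79b* and *Me2* are 5 of the 23 genes that differed between tdT+ subdural CNS-associated macrophages (sdCAMs, the CD206+ macrophages of the leptomeninges and perivascular spaces) of BLZ945-treated and vehicle-treated mice, out of 56735 gene names in the count table and 13724 that passed the filter on low counts. The members were chosen by this very contrast, so their values in it are a description and not a test. *Nav2*, *Mrc2* and *Ntrk2* were higher and *Cd79b* and *Me2* lower in BLZ945 tdT+ cells, and all 5 passed the filter. The tdT- cells of the BLZ945 mice played no part in the choice, and the question followed here is where these cells stood for each gene.

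All mice carried *Mrc1*CreERT2/CreERT2:*R26*tdT/tdT, that is, a tamoxifen-inducible Cre at both copies of the CD206 gene and, at both copies of Rosa26, a tdTomato (tdT) reporter that the Cre switches on, and all received tamoxifen 4 weeks before treatment. Vehicle or BLZ945, an inhibitor of the CSF-1 receptor on which macrophages depend, was then given for 7 days (BLZ945 at 200 mg per kg), and CD206+ cells were sorted 8 weeks later from brain without the choroid plexuses. The 3 groups, each of 4 libraries from mice labelled F1, F2, M1 and M2, were tdT+ cells of vehicle mice, tdT+ cells of BLZ945 mice, which carried the reporter since before depletion or descend from cells that did, and tdT- cells of the same BLZ945 mice, which did not carry the recombined reporter. The driver of the Cre is the gene by whose product the cells were sorted, the labels give no ages while the study's methods have mice of this line adolescent to young adult at the time of tamoxifen, and no group without the Cre was analyzed here.

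Bulk RNA-seq gave between 19969308 and 23395058 counts per library. Levels are given as normalized counts (counts divided by a size factor per library), and 3 counts, taken as the floor of detection, corresponded to at most 3.16 normalized counts. Summed counts of the 12 sdCAM markers lay between 1035770 and 1701190 in all libraries, and tdTomato itself had no counts in any of them, so the reporter could not be checked in the RNA. Mitochondrial genes took 0.702 to 1.13% of counts in vehicle, 0.515 to 0.589% in BLZ945 tdT+ and 0.324 to 0.631% in tdT- libraries. Microglial markers summed to between 312426 and 614526 in tdT- libraries and to between 132116 and 208819 in all tdT+ libraries. The tdT- library F2 stood apart, with 422981 counts of neutrophil markers against at most 69.4 in every other library. The library names carry "pre" for vehicle and "Post" for BLZ945 mice, so that treatment and any difference in the handling of the mice cannot be told apart. Lower counts of a gene in a bulk sample can come from fewer cells that express it or from less RNA per cell, which cannot be told apart.

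The 5 genes have little in common by function. *Ntrk2* encodes TrkB, the receptor tyrosine kinase for the growth factor BDNF, best known from neurons and astrocytes. *Mrc2* encodes Endo180, a mannose receptor family protein that takes up collagen for breakdown in the lysosome and is a paralogue of *Mrc1*, which encodes CD206. *Cd79b* encodes Igβ, which pairs with Igα (*Cd79a*) to pass on the signal of the B cell receptor. *Nav2* encodes neuron navigator 2, a large cytoskeletal protein first found as a gene induced by all-trans retinoic acid. *Me2* encodes the mitochondrial malic enzyme that turns malate into pyruvate. In GENCODE M33 coordinates (GRCm39), *Ntrk2* lies on the plus strand at chr13:58954383-59281784, *Mrc2* on the plus strand at chr11:105183469-105241965, *Cd79b* on the minus strand at chr11:106202167-106205588 and *Nav2* on the plus strand at chr7:48558464-49259838. No exon of *Ntrk2*, *Mrc2*, *Cd79b* or *Me2* overlapped an exon of another gene in the table, and the 295 exonic bases that *Nav2* shared with *Gm2788* concerned a gene without counts, so the lack of strand in the counting did not mix these genes with neighbours.

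The starts of 2 of the higher genes can be shown. RefSeq promoter windows (build GRCm38.p6, a different build from that of the counts) matched *Nav2*, with a pair of starts 287116 bases apart, and *Ntrk2*. The 250 bases before each start follow, 5′ to 3′ on the plus strand, with matches in capitals to any of 7 motifs searched on both strands: AP-1 (TGANTCA), the cAMP response element (TGACGTCA), PU.1 (GAGGAAGT), the retinoic acid receptor half-site (AGGTCA), the GC box (GGGCGG), the CCAAT box (CCAAT) and the TATA box (TATAAA).
Nav2, chr7:48958823-48959072: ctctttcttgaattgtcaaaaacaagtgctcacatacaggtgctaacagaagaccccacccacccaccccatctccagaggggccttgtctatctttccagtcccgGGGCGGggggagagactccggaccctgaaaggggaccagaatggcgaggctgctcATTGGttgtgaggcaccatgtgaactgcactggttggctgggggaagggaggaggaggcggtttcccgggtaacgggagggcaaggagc
Nav2, chr7:49245939-49246188: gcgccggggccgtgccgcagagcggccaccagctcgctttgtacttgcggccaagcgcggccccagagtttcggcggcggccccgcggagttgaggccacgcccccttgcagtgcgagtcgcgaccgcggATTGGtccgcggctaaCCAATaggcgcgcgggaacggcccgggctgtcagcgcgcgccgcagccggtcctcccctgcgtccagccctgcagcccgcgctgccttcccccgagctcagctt
Ntrk2, chr13:58806319-58806568: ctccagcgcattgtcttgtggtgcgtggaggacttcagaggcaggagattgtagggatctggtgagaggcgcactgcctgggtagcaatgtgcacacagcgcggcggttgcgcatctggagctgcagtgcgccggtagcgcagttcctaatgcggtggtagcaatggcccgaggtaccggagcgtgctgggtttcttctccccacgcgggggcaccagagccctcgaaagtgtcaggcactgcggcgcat
The first *Nav2* window held 1 GC box, 144 bases before the start, and 1 CCAAT box, 89 bases before it. The second *Nav2* window held 2 CCAAT boxes, 120 and 104 bases before the start, and the *Ntrk2* window held no match to any of the 7. Of all 32851 windows of this length, 32.7% held the GC box and 33.8% the CCAAT box, so that both are common. The AP-1 letters stood in 6.75% of windows, the cAMP response element in 1.55%, the PU.1 letters in 2.44%, the retinoic acid receptor half-site in 14.02% and the TATA box in 12.4%. G and C made up 58.8% and 74.4% of the *Nav2* windows and 62.8% of the *Ntrk2* window, beside a median of 52.4% over all windows. A match is a string of letters and not a measured binding site.

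The choosing contrast asks what distinguishes tdT+ cells that outlived the depletion, or their progeny, from tdT+ cells never exposed to it. A gene was called differentially expressed (DEG) if DESeq2 gave it an adjusted p up to 0.05 and a shrunken log2 fold change of 1 or more, up or down. All 5 members were DEGs by choice, where 0.169% of the genes with an adjusted p were, and in all 5 the 2 tdT+ groups did not overlap, as in 6.72% of the genes tested. *Cd79b* and *Me2* were the only 2 of the 23 that were lower. Just inside the thresholds lay *Ly9* (log2 fold change 1.01, adjusted p = 0.0155) and *Usp32* (1.97, adjusted p = 0.0411), and just outside *Mmp9* (-0.98, adjusted p = 9.35e-05) and *H2bc8* (2.10, adjusted p = 0.0559). The quasi-likelihood test of edgeR called *Cd79b* alone of the 5 in this contrast (adjusted p = 0.0427), with adjusted p of 0.207 for *Mrc2*, 0.228 for *Me2*, 0.244 for *Nav2* and 0.361 for *Ntrk2*. The members lay farther in, from *Me2* with a log2 fold change of -1.61 to *Ntrk2* with an adjusted p of 0.0101.

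**Figure D1:**
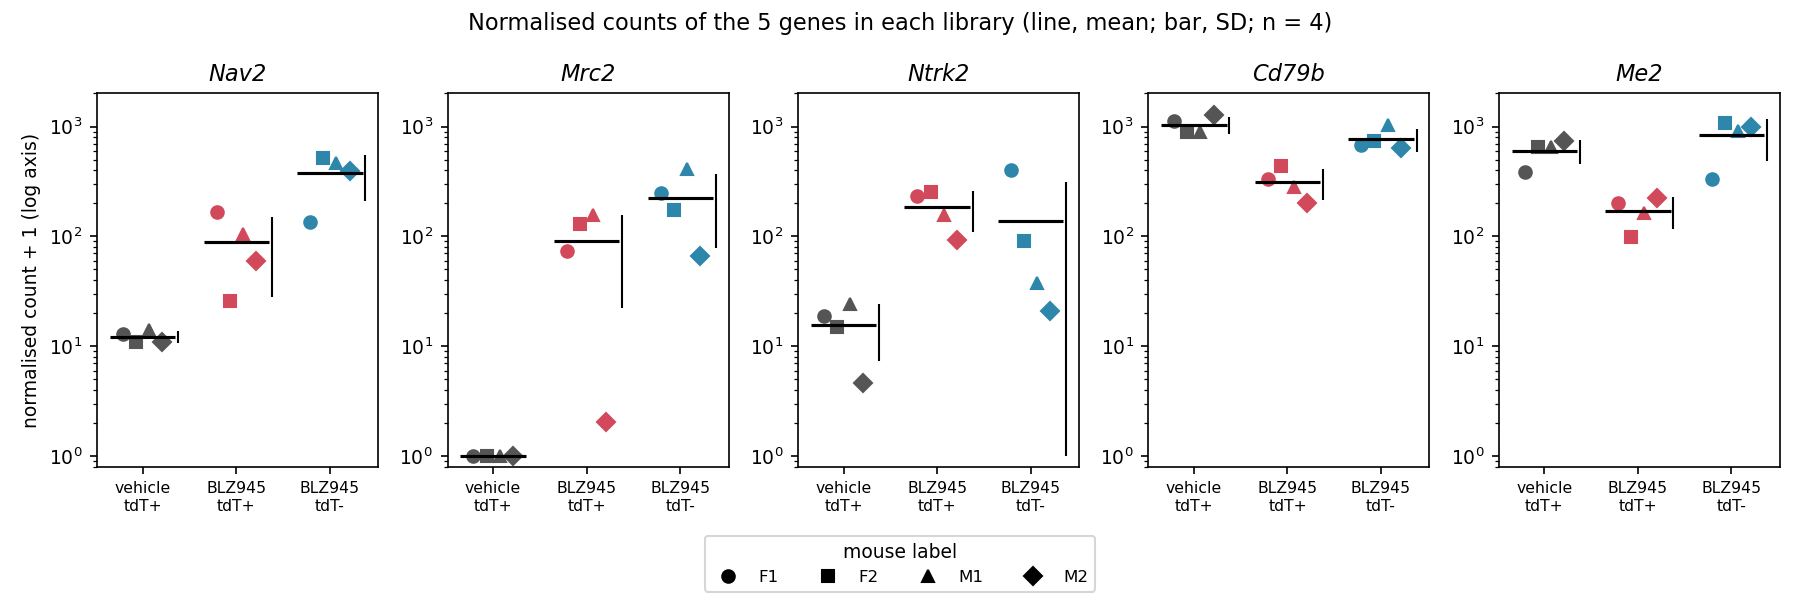
Normalized counts plus 1 of the 5 genes on a log axis, by group, with a symbol for each mouse label, a line at the mean and a bar of 1 SD (n = 4, cut at 0 for Ntrk2 in tdT- cells). The 4 tdT- libraries sit with or above BLZ945 tdT+ cells for Nav2 and Mrc2, spread over both tdT+ groups for Ntrk2, and sit above BLZ945 tdT+ cells for Cd79b and Me2.

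*Ntrk2* was low in vehicle tdT+ cells, with 18.05, 13.9, 23.4 and 3.61 normalized counts in F1, F2, M1 and M2. In BLZ945 tdT+ cells it reached 232, 252, 156 and 92.3, so that every library exceeded every vehicle library. The tdT- libraries ran from 400 in F1 through 90.4 in F2 and 36.9 in M1 to 20.1 in M2. Only F1 lay above the range of BLZ945 tdT+ cells and the other 3 lay below it, while M2 fell within the vehicle range. In both BLZ945 groups both libraries labelled F exceeded both labelled M, which was not so in vehicle cells. The mean was 14.7 ± 8.37 in vehicle tdT+, 183 ± 73.2 in BLZ945 tdT+ and 137 ± 178 in tdT- libraries (SD, n = 4 each), a ratio of 12.4 between the tdT+ groups. The fit called *Ntrk2* higher in BLZ945 tdT+ than in vehicle tdT+ cells (log2 fold change 3.10 ± 1.01, SE, adjusted p = 0.0101), the contrast by which it was chosen. Leaving out BLZ945 tdT+ F1 or F2 took the adjusted p to 0.0642 and 0.0683.

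For tdT- cells, *Ntrk2* was called against vehicle (log2 fold change 2.59 ± 1.06, adjusted p = 0.00989), although these groups overlapped. This call rested on the tdT- library F1, without which the log2 fold change was 0.35 with an adjusted p of 0.24, and it was not made by edgeR (adjusted p = 0.127). As the vehicle libraries also took part in the choice of *Ntrk2*, these adjusted p are a description and not a test. Between tdT- and tdT+ cells of BLZ945 mice no difference was detected (-0.42 ± 0.89 unshrunken, SE, adjusted p = 0.929) and the error is wide enough to hold changes in either direction. Within a mouse, tdT- cells had 1.72 times the tdT+ level in F1, and 0.359, 0.237 and 0.218 times in F2, M1 and M2. The tdT- library F1 had 9504 normalized counts of *Lyve1* and 6294 of *Cd163*, which were higher in every tdT+ library, and both values lay within the range of the other tdT- libraries. The 9 astrocyte markers summed to between 1294 and 1810 in vehicle, 1366 and 3901 in BLZ945 tdT+ and 2432 and 4263 in tdT- libraries, so that tdT- and vehicle libraries did not overlap. *Slc1a3*, a glutamate transporter counted here as an astrocyte marker, made up much of the tdT- sums (1731 on average, against 238 in vehicle). It was also among the genes most like *Nav2* over the 12 libraries (r = 0.944). Sums without *Slc1a3* were not compared, so the lack of overlap is not shown for the other markers. *Gfap* had 0 counts in tdT- M1 and M2, and *Aqp4* had 0 in tdT- M1 and all BLZ945 tdT+ libraries. All 9 astrocyte markers had counts in the vehicle and tdT- groups and 8 in BLZ945 tdT+ cells. The tdT- library F1, highest for *Ntrk2*, had the lowest of the tdT- sums, 2432. Among BLZ945 tdT+ libraries F1 had the highest sum, 3901, and the highest *Nav2*, 167. The highest *Ntrk2* of that group, 252, was in F2, which had its lowest sum, 1366. Neuronal markers summed to between 418 and 713 in vehicle, 341 and 549 in BLZ945 tdT+ and 96.0 and 489 in tdT- libraries. The part of such cells in the levels of *Ntrk2* and *Nav2* was not tested.

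Of the ligands of *Ntrk2* and its relatives few reads were seen. *Ntf3* and *Ntf5* had 0 counts in all 12 libraries, which at this depth allows up to 3 counts each, and *Bdnf* was counted only in the vehicle and BLZ945 tdT+ libraries of mice labelled M1, at 20.8 and 11.3 normalized counts. *Ngfr*, the shared low-affinity neurotrophin receptor, reached 1.04 in 1 tdT- library. *Ntrk3*, the receptor for neurotrophin-3, averaged 34.2, 39.6 and 40.5 in vehicle tdT+, BLZ945 tdT+ and tdT- cells (adjusted p = 1 and 0.977 against vehicle). Per kilobase of exon, *Ntrk2* went from 0.763 in vehicle to 9.48 in BLZ945 tdT+ cells, while *Ntrk3* stood at 1.13 and 1.31. Of the 21 other genes of the neurotrophin list (ligands, receptors, adaptors such as *Shc1* and *Frs2*), 13 could be tested and 0 passed an adjusted p of 0.05 in any of the 3 contrasts, beside 0.961% of all genes in the contrast of tdT+ groups. Their median unshrunken log2 fold change was -0.10 between the tdT+ groups, beside 0.03 over all genes.

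*Mrc2* had 0 counts in all 4 vehicle libraries. In BLZ945 tdT+ cells it had 72.7, 128 and 155 normalized counts in F1, F2 and M1, but 1.05, a single read, in M2. In tdT- cells it had 245, 171, 412 and 65.0 in F1, F2, M1 and M2. Every tdT- library therefore held reads, and in each mouse the tdT- value exceeded the tdT+ value. A pattern of 0 counts in all vehicle and at least 1 count in all 8 BLZ945 libraries was shared by 9 of the genes tested (0.0656%), whereas 0.612% had no vehicle count. *Mrc2* met it in BLZ945 tdT+ M2 only by that single read, under the floor of 3 counts. Against the floor of 3 counts per library, the mean of BLZ945 tdT+ cells (89.2 ± 68.0) was at least 29.6-fold higher and that of tdT- cells (223 ± 146) at least 74.3-fold higher than vehicle.

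DESeq2 gave *Mrc2* an adjusted p of 1.95e-06 between the tdT+ groups, by which it was chosen, and of 1.57e-09 for tdT- against vehicle tdT+ cells. With 0 counts in vehicle, *Mrc2* passed the filter on low counts only through BLZ945 libraries. The vehicle libraries also took part in its choice, so both adjusted p are a description and not a test. Fitted fold changes of a gene without counts in a group depend on the prior and are not given. When a BLZ945 tdT+ library F1, F2 or M1 was left out, shrinkage took the log2 fold change of the first contrast to at most 0.03, below the threshold, while the adjusted p stayed at or under 5.34e-05. Between tdT- and tdT+ cells of BLZ945 mice the 2.51-fold ratio of means was within the spread of the libraries (1.33 ± 1.13 on the unshrunken log2 scale, adjusted p = 0.701). The ratio within a mouse was 3.37 in F1, 1.34 in F2 and 2.66 in M1, and in M2 it was 62.0 on 68 reads against 1 (95% interval from 10.8 to 2484, exact binomial, counting error only).

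**Figure D2:**
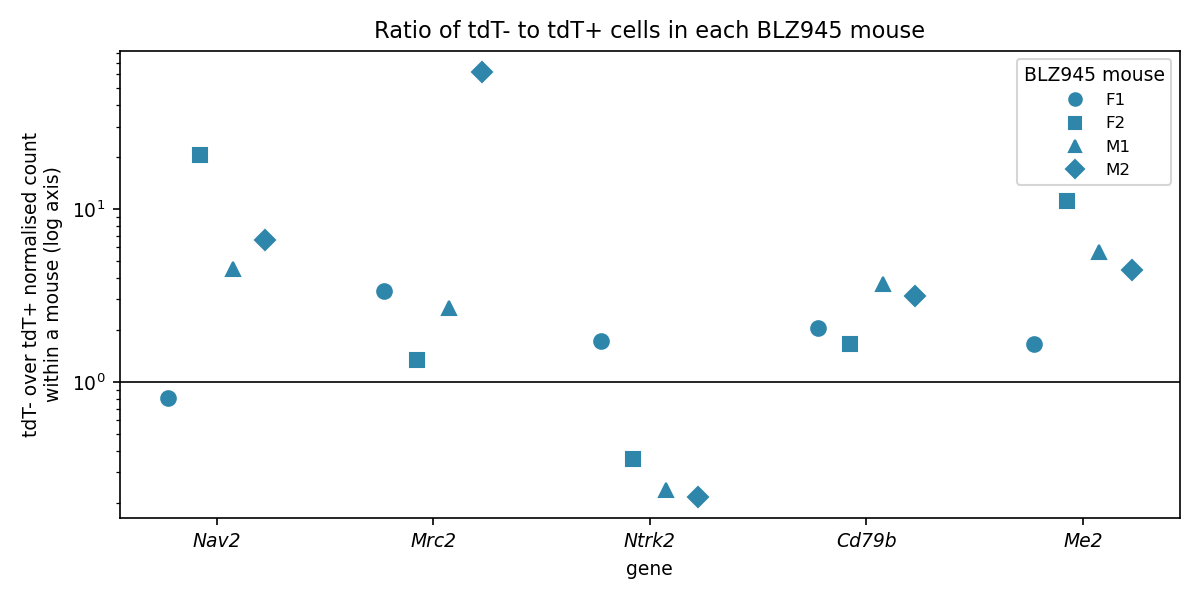
Ratio of the normalized count in tdT- cells to that in tdT+ cells of the same BLZ945 mouse, on a log axis, with a symbol for each of the 4 mice and a line at a ratio of 1. Mrc2, Cd79b and Me2 lie above 1 in 4 of 4 mice, Nav2 in 3 and Ntrk2 in 1, and the Mrc2 ratio of M2 rests on 1 tdT+ read.

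The paralogues of *Mrc2* did not follow it. *Mrc1* averaged 7614 in vehicle tdT+, 9710 in BLZ945 tdT+ and 3318 in tdT- cells, and fell in tdT- cells against both (log2 fold change -1.14, adjusted p = 5.78e-08, and -1.50, adjusted p = 3.65e-13). In each BLZ945 mouse *Mrc1* was therefore higher in tdT+ cells, between 2.14 times and 5.53 times, where *Mrc2* was higher in tdT- cells. All groups carry CreERT2 at the *Mrc1* locus, so its effect on *Mrc1* cannot be seen here. *Ly75* (DEC-205) was seen only in tdT- F2, at 388, and M2, at 3.82, and *Pla2r1* mostly in BLZ945 tdT+ F1, at 130, and neither passed the filter. Per kilobase, *Mrc2* stood at 13.4 in BLZ945 tdT+ and 33.5 in tdT- cells beside 1524 and 521 for *Mrc1*.

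Of the 19 other genes of the mannose receptor and collagen list, 13 were tested and 0 were DEGs between the tdT+ groups, where only *Itgb1*, the β1 integrin chain shared by collagen receptors, passed the adjusted p (10613 ± 648 to 14511 ± 587, log2 fold change 0.40, adjusted p = 0.00916). The urokinase receptor *Plaur* (1.40, adjusted p = 0.0028) and the collagen-binding inhibitory receptor *Lair1* (1.17, adjusted p = 9.15e-19) were higher in tdT- than in vehicle cells. In the same contrast *Mmp14*, a membrane collagenase, stayed under the fold threshold (0.94, adjusted p = 0.00315). The collagen-degrading lysosomal protease *Ctsk* and the collagen receptors *Ddr2* and *Itga2* had 0 counts in all libraries. The list's median unshrunken log2 fold change was 0.25 between the tdT+ groups and 0.15 for tdT- against vehicle, beside 0.03 over all genes in both.

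*Cd79b* had the highest level per kilobase of the 5 genes in each group. Vehicle tdT+ libraries held 1121, 886, 899 and 1262 normalized counts in F1, F2, M1 and M2, and BLZ945 tdT+ libraries 329, 440, 279 and 201. The tdT- libraries held 676, 732, 1022 and 633. All 4 of these lay above every BLZ945 tdT+ library, while 1 lay within the vehicle range and 3 below it. The means were 1042 ± 182, 312 ± 99.9 and 766 ± 176, so that BLZ945 tdT+ cells had a 3.34-fold lower level than vehicle (log2 fold change -1.63 ± 0.30, adjusted p = 1.73e-06, the contrast of choice).

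The tdT- cells held 2.45 times as much *Cd79b* as the tdT+ cells of the same mice (log2 fold change 1.16 ± 0.31, adjusted p = 0.000426), and the ratio was above 1 in 4 of 4 mice, between 1.66 and 3.66. As these BLZ945 tdT+ libraries also took part in the choice of *Cd79b*, both the adjusted p and the ratios are a description and not a test. The log2 fold change was 0.97 without tdT- M1 and 0.99 without BLZ945 tdT+ M2, just under the threshold of 1, with adjusted p of 0.00575 and 0.00318. Against vehicle, tdT- cells were not called (-0.44 ± 0.29 unshrunken, adjusted p = 0.507), and the means differed 1.36-fold. Microglial markers summed to between 312426 and 614526 in tdT- and between 175741 and 208819 in BLZ945 tdT+ libraries. The tdT- library M1 was highest for both these markers and *Cd79b* (614526 and 1022). M2, with a sum of 455792, had the lowest *Cd79b* of the tdT- libraries, 633. F2, with the lowest sum, 312426, had 732, and F1 had 323799 and 676. Vehicle libraries, with sums of 132116 to 187305, had the highest mean of *Cd79b*. The part of microglia in the level of *Cd79b* was not tested.

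*Ighm*, the heavy chain of the same receptor complex, was also lowest in BLZ945 tdT+ cells, and is named here because its adjusted p between the tdT+ groups was under 0.05. It had 9191, 6693, 9768 and 9419 normalized counts in vehicle tdT+, 6128, 5826, 5134 and 5120 in BLZ945 tdT+ and 11265, 8997, 10576 and 10406 in tdT- libraries. The BLZ945 tdT+ libraries lay below all others. *Ighm* passed the adjusted p but not the fold threshold between the tdT+ groups (log2 fold change -0.61 ± 0.14, adjusted p = 0.000222) and between tdT- and tdT+ cells (0.86 ± 0.13, adjusted p = 2.22e-09). A group of BLZ945 tdT+ libraries below both other groups was found for 0.583% of the genes tested. The partner of *Cd79b*, *Cd79a*, averaged only 44.9, 10.5 and 2.12, with 147 in vehicle M1 as its highest value, and the B cell gene *Pax5* had 0 counts in all 12 libraries. The 8 B cell markers summed to between 6733 and 10093 in vehicle, 5134 and 6165 in BLZ945 tdT+ and 9116 and 11505 in tdT- libraries, most of which was *Ighm*. Per kilobase, *Cd79b* stood at 728 in vehicle cells, beside 30.8 for *Cd79a* and 4649 for *Ighm*.

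Of the 22 other genes of the B cell receptor list, 19 were tested, and *Ighm* was the only one to pass the adjusted p between the tdT+ groups, with 0 DEGs. *Cd81*, a tetraspanin of the co-receptor, was the only DEG of the list in tdT- cells, against vehicle (1.59, adjusted p = 1.63e-15) and against BLZ945 tdT+ cells (1.07, adjusted p = 1.76e-07), the latter with 0 DEGs in the list when tdT- M1 was left out. Under the fold threshold, the Src family kinase *Lyn* (0.46, adjusted p = 0.00149) and the adaptor *Dapp1* (0.76, adjusted p = 0.0145) were higher in tdT- than in vehicle cells. *Bank1*, a scaffold of B cell signalling, was lower in tdT- cells against vehicle and BLZ945 tdT+ cells (-0.72, adjusted p = 0.0061, and -0.81, adjusted p = 0.00137), as was the inhibitory Fc receptor *Fcgr2b* (-0.39, adjusted p = 0.0041, and -0.71, adjusted p = 9.72e-09). The signalling genes *Syk*, *Btk* and *Blnk* passed in no contrast. The list's median unshrunken log2 fold change was 0.10 between the tdT+ groups, beside 0.03 over all genes. For tdT- cells it was 0.23 against vehicle and 0.21 against BLZ945 tdT+ cells, beside 0.03 and 0.004 over all genes.

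*Mrc2* and *Cd79b* moved in opposite directions although 960202 bases apart on chromosome 11. Of the 33 gene names that lie between them, 15 were tested and 0 were DEGs between the tdT+ groups in DESeq2, 2 of them with an unadjusted p under 0.05 and 0 with an adjusted p of at most 0.05. Their median unshrunken log2 fold change was 0.02.

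*Nav2* was low and even in vehicle tdT+ cells, with 12.0, 9.90, 13.0 and 9.92 normalized counts in F1, F2, M1 and M2. BLZ945 tdT+ cells had 167, 24.9, 104 and 58.7, all above the vehicle range. The tdT- libraries had 135, 511, 468 and 390, so that F1 lay within the range of BLZ945 tdT+ cells and the other 3 above it. The levels thus rose in the order vehicle tdT+ (11.2 ± 1.55), BLZ945 tdT+ (88.4 ± 61.2) and tdT- (376 ± 169). BLZ945 tdT+ cells had 7.89 times the vehicle level (log2 fold change 2.64 ± 0.72, adjusted p = 0.00198, the contrast of choice), and tdT- cells 33.6 times (4.89 ± 0.68, adjusted p = 3.98e-12). Since the vehicle libraries of both contrasts took part in the choice of *Nav2*, both adjusted p are a description and not a test.

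The step from tdT+ to tdT- cells of BLZ945 mice was less firm, and its BLZ945 tdT+ libraries also took part in the choice. *Nav2* was called there (4.25-fold, log2 fold change 1.62 ± 0.74, adjusted p = 0.0201), but not with the mouse as a replicate block (0.38, adjusted p = 0.0527), not by edgeR (adjusted p = 0.143) and not when tdT- F2, M1 or M2 or BLZ945 tdT+ F2 or M2 was left out (adjusted p between 0.0526 and 0.0914). The ratio within a mouse was 0.808 in F1 and 20.5, 4.52 and 6.64 in F2, M1 and M2. Without tdT- F2, the library with neutrophil markers, the log2 fold change against vehicle was 4.64 (adjusted p = 9.35e-09) and that against BLZ945 tdT+ cells 1.07 (adjusted p = 0.0914).

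*Nav1*, a close relative, was more even, with means of 459, 434 and 360 in vehicle tdT+, BLZ945 tdT+ and tdT- cells (adjusted p = 1 and 0.791 against vehicle). *Nav3* had between 0 and 36.6 in vehicle, 5.52 and 80.0 in BLZ945 tdT+ and 0 and 387 in tdT- libraries, where F1 again had the lowest value and the other 3 had at least 209 (adjusted p = 0.11 for tdT- against vehicle). Per kilobase, tdT- cells held 11.7 of *Nav2*, 12.5 of *Nav3* and 19.1 of *Nav1*. Of the 13 other genes of the navigator and microtubule list, all tested, 0 passed the adjusted p in any contrast, beside medians of 0.00 for the list and 0.03 for all genes between the tdT+ groups on the unshrunken log2 scale. The list's medians were 0.18 for tdT- against vehicle and 0.25 for tdT- against BLZ945 tdT+ cells, beside 0.03 and 0.004 over all genes.

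Since *Nav2* is known as a retinoic acid-induced gene, the retinoic acid receptors and enzymes were read beside it. Of 18 genes, 11 were tested and 0 passed between the tdT+ groups, with a median unshrunken log2 fold change of -0.22 beside 0.03 over all genes. For tdT- cells the median was -0.44 against vehicle and -0.38 against BLZ945 tdT+ cells, beside 0.03 and 0.004 over all genes. *Rara*, retinoic acid receptor alpha, was the only DEG, lower in tdT- than in vehicle cells (709 to 274, log2 fold change -1.05, adjusted p = 0.0344), where *Nav2* was higher, and this call was lost without vehicle F1, F2 or M2 or tdT- F2, in edgeR, and with the 2 groups fitted alone with or without the label as a replicate block.

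**Figure D3:**
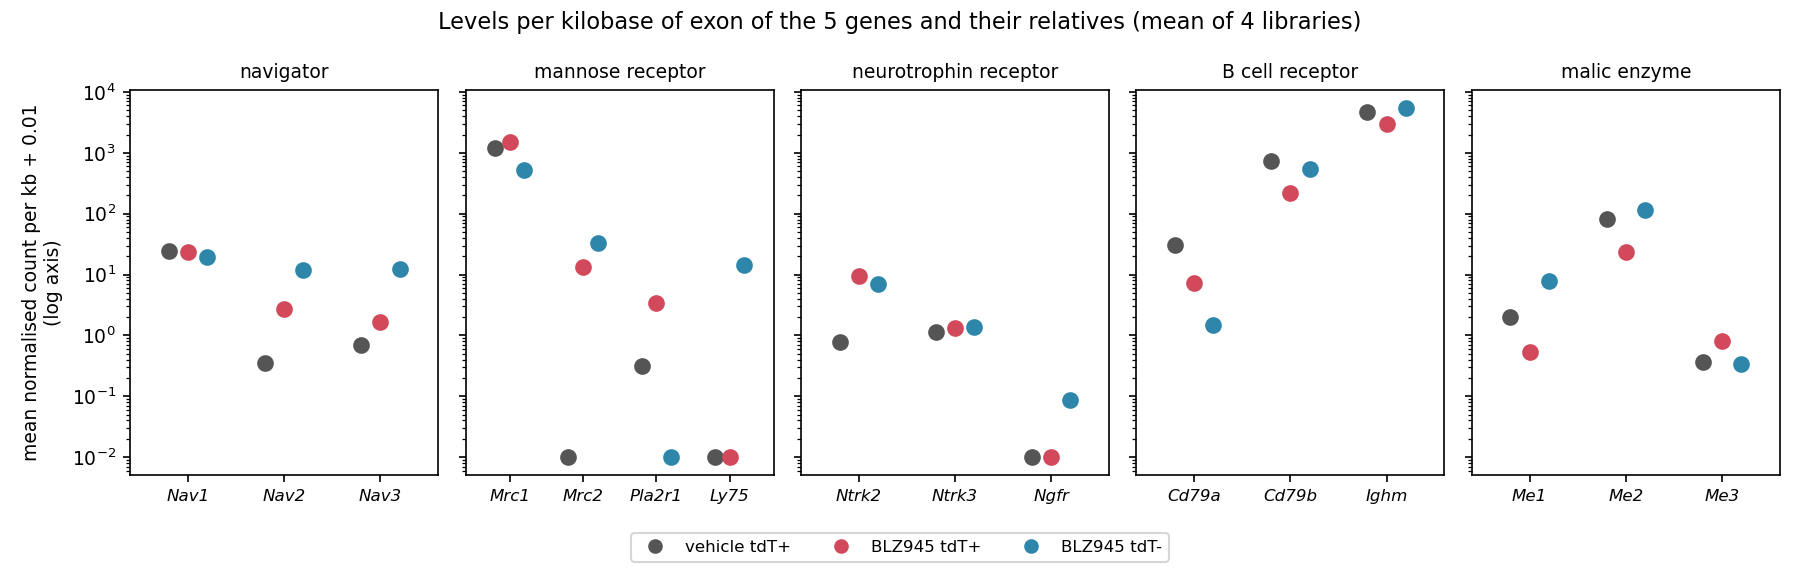
Mean normalized count per kilobase of exon plus 0.01, on a log axis, for the 5 genes and their relatives in the 3 groups (4 libraries each), where points at 0.01 are genes with 0 counts in the group. Nav2, Mrc2 and Ntrk2 stand far lower in vehicle than in both BLZ945 groups, and Cd79b and Ighm are both lowest in BLZ945 tdT+ cells.

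*Me2* lies on the minus strand at chr18:73902974-73948520 (GRCm39). It had 387, 649, 646 and 735 normalized counts in vehicle tdT+ libraries F1, F2, M1 and M2. BLZ945 tdT+ libraries had 200, 97.7, 162 and 224, all below the vehicle range. The tdT- libraries had 331, 1085, 909 and 994, so that F1 lay below the vehicle range and the other 3 above it, while all 4 lay above the BLZ945 tdT+ range. The means were 604 ± 150, 171 ± 55.2 and 830 ± 340. BLZ945 tdT+ cells thus had a 3.53-fold lower level than vehicle (log2 fold change -1.61 ± 0.44, adjusted p = 0.00245, the contrast of choice).

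Within BLZ945 mice tdT- cells had 4.85 times as much *Me2* as tdT+ cells (log2 fold change 2.13 ± 0.43, adjusted p = 2.48e-06), and the ratio within a mouse was 1.66, 11.1, 5.61 and 4.43 in F1, F2, M1 and M2. Against vehicle the tdT- cells were not called (0.46 ± 0.41 unshrunken, adjusted p = 0.714). The call between tdT- and tdT+ cells was kept with the mouse as a block (adjusted p = 0.000941), without tdT- F1 (2.44, adjusted p = 1.66e-10) and without tdT- F2 (1.92, adjusted p = 0.000136). All of these fits use the BLZ945 tdT+ libraries, whose low values took part in the choice of *Me2*. Their adjusted p are therefore a description and no independent support.

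*Me1*, the cytosolic malic enzyme, was counted in 4 of 12 libraries, with 113 in tdT- F1 as its highest value, and *Me3*, the other mitochondrial isoform, never passed 32.8. *Me2* was therefore the main malic enzyme transcript, with 83.3 per kilobase in vehicle cells beside 1.97 for *Me1* and 0.360 for *Me3*. Of the 27 other genes of malate and pyruvate metabolism, 26 were tested and 0 passed between the tdT+ groups, with a median of -0.01 beside 0.03 over all genes. In tdT- cells 4 passed the adjusted p against vehicle, all lower and none a DEG. They were the isocitrate dehydrogenases *Idh1* (-0.50, adjusted p = 0.0131) and *Idh2* (-0.58, adjusted p = 8.91e-06), the dicarboxylate carrier *Slc25a10* (-0.61, adjusted p = 0.0149) and the transhydrogenase *Nnt* (-0.78, adjusted p = 0.0305). *Me2* did not follow them, its tdT- mean being 1.37 times that of vehicle.

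Side by side, tdT- cells were called higher than vehicle tdT+ cells for *Nav2*, *Mrc2* and *Ntrk2*, 3 of 5 members where 2.57% of genes were called and 1.49% called higher. Of these, *Mrc2* passed the filter on low counts only through BLZ945 libraries, so its call is a description and not a test. *Nav2* and *Mrc2* did not overlap with vehicle there, as 9.7% of genes did not, and *Ntrk2* did. Against BLZ945 tdT+ cells, *Nav2*, *Cd79b* and *Me2* were called higher, where 2.31% of genes were called and 1.22% called higher, and *Cd79b* and *Me2* did not overlap, as 9.35% of genes did not. Both contrasts share libraries with the contrast that chose the genes, the first its vehicle and the second its BLZ945 tdT+ libraries, so a chance extreme in the shared libraries would recur in them and they are no independent support. Both BLZ945 groups lay above vehicle without overlap for *Nav2* and *Mrc2*, and for 0.823% of all genes tested. For *Mrc2* this rested on a single read in BLZ945 tdT+ M2, under the floor of 3 counts. For *Cd79b* and *Me2* the BLZ945 tdT+ cells lay below both other groups, the pattern found for 0.583% of genes. The tdT- library F1 was nearest to BLZ945 tdT+ cells among the tdT- libraries for *Nav2* and *Me2*, but not for *Mrc2* or *Cd79b*.

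**Figure D4:**
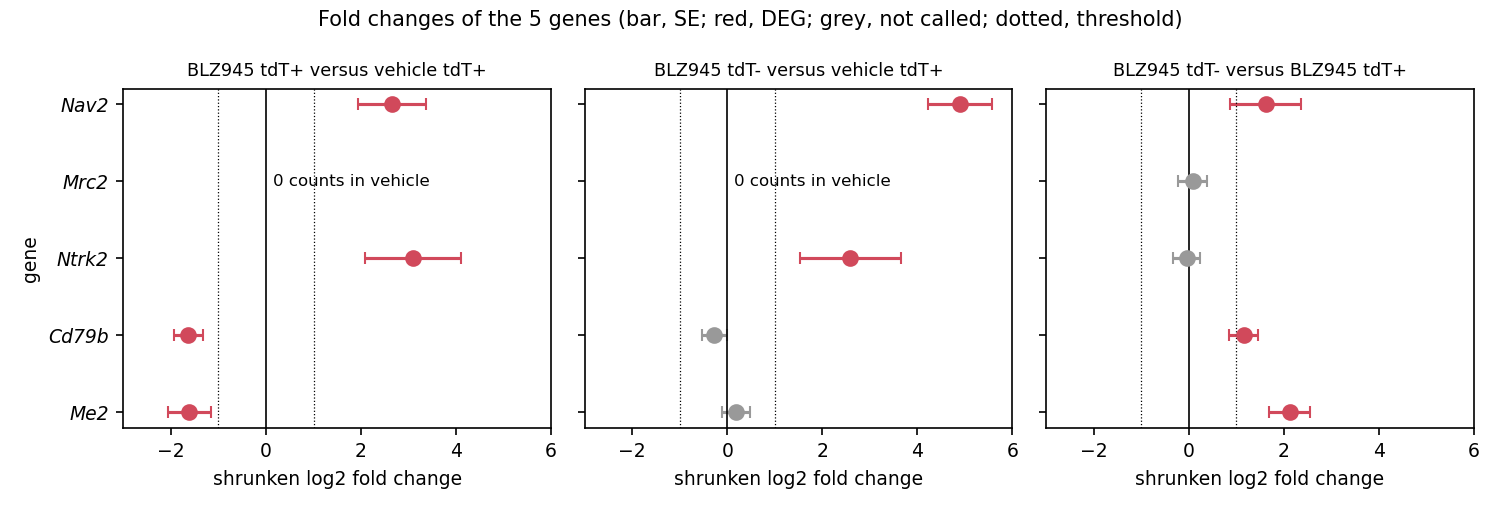
Shrunken log2 fold change (bar, SE) of the 5 genes in the 3 contrasts, red for DEGs and grey for genes not called, with dotted lines at the threshold of 1 in size and no fold for Mrc2 against vehicle, which had 0 counts. In tdT- cells against vehicle Nav2 (4.89) and Ntrk2 (2.59) are called and Cd79b and Me2 lie near 0, whereas in tdT- against BLZ945 tdT+ cells Nav2, Cd79b and Me2 are called.

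The genes most like each member were sought among 9291 tested genes with a mean of at least 100 normalized counts, by Pearson's r of variance-stabilized counts over the 12 libraries, which come from 8 mice. For *Ntrk2* these were *Yes1* (r = 0.876), *Itgb1* (0.876) and *Usp32* (0.866), the last 2 with an adjusted p under 0.05 between the tdT+ groups. For *Mrc2* they were *Junb* (0.904), *Mertk* (0.896) and *Lrrc75a* (0.891), for *Nav2* *Acer3* (0.945), *Slc1a3* (0.944) and *Phgdh* (0.943), for *Cd79b* *Supt4a* (0.938), *Mlf2* (0.891) and *Tpd52* (0.888), and for *Me2* *Cops6* (0.886), *Ndufb6* (0.886) and *Pomp* (0.883). With the group means taken out, *Mertk* stayed among the 3 for *Mrc2*, now as the first (0.887), and no other gene stayed among the 3 most like a member. Among the 3 most like a member were then *Usp20* for *Ntrk2* (0.946), *Mospd1* for *Nav2* (0.947), *Nol12* for *Cd79b* (0.902) and *Cnot7* for *Me2* (0.926). These r are the highest of many over few libraries and are given as a description.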

How the data were processed

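RNA of FACS-sorted sdCAMs was amplified by a SMART-Seq protocol, per the labels, so reads are not independent molecules and intervals and floors cover counting error only. The authors deposited raw counts of reads per gene symbol, made per the file headers with featureCounts 2.0.6 from exons of a GENCODE M33 annotation (GRCm39) with a tdTomato entry, without strand, after alignment with STAR 2.7.11a per the submitters' processing notes. Replicates were not pooled. Columns were matched to libraries by name, with 0 unmatched. The name of 1 vehicle column holds the number of M2 and the label M1, and its number was followed. Of 56735 gene names, 32387 had 0 counts throughout.

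After the study's filter, which drops a gene if 75% or more of the libraries hold under 10 counts, 13724 genes were fitted in R 4.3.3 on all 12 libraries by group with DESeq2 1.42.0 (Wald test, two-sided, its default size factors), with Benjamini-Hochberg adjustment over all genes and apeglm 1.24.0 shrinkage. The thresholds for a DEG were an adjusted p up to 0.05 and a log2 fold change of 1 or more, up or down. Of the genes fitted, 91, 91 and 355 got no adjusted p in the 3 contrasts. Values are mean ± SD over 4 libraries, and levels per kilobase use the deposited exon lengths. The alternatives tried were edgeR 4.0.16 (quasi-likelihood test), TMM factors, other filters, unshrunken fold changes, fits on 2 groups, the label letter, a replicate block and leaving out each library. The scripts were tested on simulated data.

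In BLZ945 mice a label names 1 mouse, from which both a tdT+ and a tdT- library were made, so these are paired by design, whereas vehicle mice are other animals that share only the label. Deviations from group means of same-labelled libraries correlated between 0.0144 and 0.0596 across genes in BLZ945 mice. No pair of replicates agreed within sampling noise. The main fit took all 12 libraries as independent, with a single estimate of the spread per gene over the 3 groups. Against vehicle, its p-values compare different mice. Between tdT- and BLZ945 tdT+ cells they ignore the pairing within mice, which only the fit with the replicate block takes in.

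Members, gene lists and markers were chosen with earlier results of these data known. Named besides the members are their paralogues, list genes called in any contrast or with an adjusted p of at most 0.05 between the tdT+ groups, and per member the 3 genes most like it (some genes are not reported here); genes named at 0 counts, under a threshold or as examples of a list that did not pass, and single-library values, were chosen after their values were seen. Promoters are from RefSeq tables of GRCm38.p6, whose coordinates were not converted, and 2 of 5 members had one shown.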

Additional observations from a re-analysis of the deposited data

Results flagged for a closer look

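In no group did a library of *Nav2*, *Mrc2*, *Ntrk2*, *Cd79b* or *Me2* stand far enough from the other 3 to pass Dixon's criterion for an outlying value, in which the gap to the nearest library is divided by the range of the group. With 4 libraries per group this criterion can miss a library that stands apart. *Ntrk2* in tdT- F1 (400, with 90.4 the next highest) did not pass, although its call against vehicle rested on that library. Of 69 groups examined (these 5 genes, *Ighm*, *Mrc1*, *Itgb1* and 15 sums of cell type markers), 7 passed, where chance gives about 1 in 20, or 3.45. In tdT- libraries F2 was the high value in 4 of them, for neutrophil (422981 against at most 21.0, a gap of 1 of the range), red blood cell (36171 against 100, 0.997), monocyte (51211 against 6650, 0.926) and T or NK cell markers (680 against 54.5, 0.92). In BLZ945 tdT+ libraries a single library was high for neutrophil (56.2 against 4.20, 0.941), oligodendrocyte (12432 against 6427, 0.856) and astrocyte markers (3901 against 1756, 0.846). Leaving out tdT- F2 ended the call of *Nav2* between tdT- and tdT+ cells of BLZ945 mice and no other call of the 5 genes. The part of these cells in the levels of the 5 genes was not tested.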

How the results depend on the processing

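The direction of each of the 5 genes in each of the 3 contrasts was kept in every alternative that gave it an adjusted p. The count of DEGs between the tdT+ groups, 23, moved most. It was 54 with the 2 groups fitted alone, 45 without a filter, 7 with a mean of at least 100 normalized counts required, 7 in edgeR (6 of them shared with the 23), 67 without shrinkage and 131 without the fold threshold. The 12 fits without 1 library gave between 17 and 34. For tdT- against vehicle cells the 350 DEGs became 544 without shrinkage and 928 without the fold threshold, and for tdT- against BLZ945 tdT+ cells the 309 became 487 and 875. With the stricter filter DESeq2 gave the members no adjusted p between the tdT+ groups, which is not counted as a lost call.

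With the label as a replicate block, DEGs numbered 58 between the tdT+ groups, 369 for tdT- against vehicle and 373 for tdT- against BLZ945 tdT+ cells. The block ended the calls of *Nav2* in BLZ945 tdT+ against vehicle cells (adjusted p = 0.0824) and of *Ntrk2* in tdT- against vehicle cells (0.0885), where the libraries share a label only, and that of *Nav2* between tdT- and BLZ945 tdT+ cells (0.0527), and it changed no other call of the 5 genes. *Ntrk2* in tdT- against vehicle cells was also lost with the 2 groups fitted alone (adjusted p = 0.0555). Vehicle libraries held at most 13.0 *Nav2* and 23.4 *Ntrk2* normalized counts, levels at which counting error is large. The SD was 13.8, 69.3 and 44.8% of the mean for *Nav2* in vehicle tdT+, BLZ945 tdT+ and tdT- libraries. For *Ntrk2* it was 56.9, 40.0 and 130%. The causes of the lost calls were not tested.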
